A study of Mus musculus with 40 samples.

Results

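Steroid hormone receptors and steroid-converting enzymes were examined as a set of 9 genes chosen by name: the receptor genes Nr3c1 and Nr3c2 and the enzyme genes Srd5a1, Akr1c14, Hsd11b1, Hsd17b11, Cyp7b1, Sult1a1 and Sts. Of these, 8 were found by symbol among the 26792 gene symbols of the count table, and Sts was not analysed here. No measured value entered the choice of symbols, although the set was put together with earlier results of these data known. The question was how much of each message sits on astrocyte ribosomes, and whether diet or loss of the testes altered it.

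The messages came from microdissected hypothalami of Aldh1l1 eGFP-L10a mice, which carry a green fluorescent tag on ribosomal protein L10a under the Aldh1l1 promoter, so that tagged ribosomes mark astrocytes. In translating ribosome affinity purification (TRAP) the tagged ribosomes are captured with their messages. The captured material (IP in the labels) is called the pull-down here, and what stayed behind (SN) the supernatant. All mice carried the transgene and had surgery or its sham, and the diets lasted 4 weeks. The groups were sham-operated mice on chow (7 samples), sham-operated mice on a high-fat diet, HFD (6 samples), and orchiectomised mice on HFD (7 samples; ORX or GDX in the labels), each with both fractions, which gave 40 libraries. No orchiectomised group on chow was analysed, so orchiectomy could be compared on HFD only, and no ages are given in the labels. Samples are named by group and sample number. Whether each number stands for a single mouse is not stated, so p-values describe the scatter among the samples, which may be in part technical.

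Pull-down libraries held 7714834 to 20792175 counts and supernatant libraries 8739276 to 12931869. All 10 astrocyte markers were higher in the pull-down (median log2 difference 4.65), and all 10 neuron markers (median -3.69), all 7 oligodendrocyte markers (median -3.72) and all 6 microglia markers (median -3.11) were lower. All 7 endothelial markers were also higher in the pull-down (median 2.40), as were the 3 choroid plexus markers tested of 4 listed (median 2.42). A higher level in the pull-down thus does not by itself place a message in astrocytes. The summed level of the endothelial markers was over 500 CPM in 5 pull-downs (chow 8, HFD 1 and ORX 6, 11 and 22) and between 171 and 379 CPM in the other 15. The RNA gene Gm42418, which overlaps a ribosomal RNA repeat, took over 10% of the counts in 4 of those 5 pull-downs, all but ORX 6. CPM is the count scaled to a common library total. The library kit reads 1 tag near the 3' end of each message, so that CPM can be compared between genes without a correction for length.

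Corticosteroids bind 2 related nuclear receptors, the glucocorticoid receptor (Nr3c1) and the mineralocorticoid receptor (Nr3c2), which then bind DNA and change transcription. How much hormone reaches them is set within the cell: 11-beta-hydroxysteroid dehydrogenase type 1 (Hsd11b1) regenerates active glucocorticoid from its inert 11-keto form, 5-alpha-reductase type 1 (Srd5a1) reduces testosterone, progesterone and corticosteroids, and 3-alpha-hydroxysteroid dehydrogenase (Akr1c14) acts on the 5-alpha-reduced products, giving neurosteroids such as allopregnanolone. Hsd17b11 oxidises 17-beta-hydroxysteroids and sits on lipid droplets, Cyp7b1 adds a 7-alpha hydroxyl group to oxysterols, dehydroepiandrosterone and 3-beta,17-beta-androstanediol, Sult1a1 attaches sulfate to phenols and phenolic hormones, and Sts removes sulfate from steroids.

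The promoters of 3 genes are shown because their messages stand apart in the results: Sult1a1 had the largest difference after orchiectomy in the pull-downs, Nr3c2 was next by p-value, and Srd5a1 was the only one of the 8 that was not enriched in the pull-down. Each is the RefSeq sequence of GRCm38.p6 upstream of the start of the gene's RefSeq entry, without bases that GENCODE places in an untranslated region of the gene: chr7:126676433-126676668 (minus strand), chr8:76902080-76902287 (plus) and chr13:69611464-69611713 (minus). Capitals mark the hexamer AGAACA or its reverse complement TGTTCT, the unit that corticosteroid receptors bind as an inverted repeat.
Sult1a1: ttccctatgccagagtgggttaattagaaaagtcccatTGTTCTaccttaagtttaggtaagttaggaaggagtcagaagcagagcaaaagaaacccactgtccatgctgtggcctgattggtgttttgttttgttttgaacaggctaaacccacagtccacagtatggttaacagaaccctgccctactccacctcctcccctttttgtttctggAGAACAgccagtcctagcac
Nr3c2: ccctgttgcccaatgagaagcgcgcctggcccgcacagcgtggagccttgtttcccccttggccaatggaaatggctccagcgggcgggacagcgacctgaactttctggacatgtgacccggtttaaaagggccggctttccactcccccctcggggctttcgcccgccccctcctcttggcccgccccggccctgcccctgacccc
Srd5a1: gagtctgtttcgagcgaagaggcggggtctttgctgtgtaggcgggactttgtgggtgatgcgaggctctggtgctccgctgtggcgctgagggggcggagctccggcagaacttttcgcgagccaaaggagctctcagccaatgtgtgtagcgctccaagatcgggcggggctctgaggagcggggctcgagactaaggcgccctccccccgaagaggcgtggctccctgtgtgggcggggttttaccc
The 250 bases before the RefSeq start were searched on both strands for 6 of the 8 genes, without Nr3c1 and Cyp7b1. Sult1a1 held the hexamer at 212 and at 34 bases before the start, and the other 5 windows held none. Of 32851 promoters of the same length, 16.1% held it. The inverted repeat of GNACA, 3 bases of any kind and TGTNC, which can overlap the hexamer, was in none of the 6 windows and in 0.387% of all promoters. GC content was 45.6% for Sult1a1, 68.4% for Nr3c2, 64.8% for Srd5a1, 38.8% for Akr1c14, 54.4% for Hsd11b1 and 54.8% for Hsd17b11, beside a median of 52.4% over all promoters. These matches describe letters only.

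The genes lie apart in the genome, on GRCm38 as annotated by GENCODE M21, and all are protein coding. Nr3c1 lies at chr18:39410545-39519421 (minus strand), Nr3c2 at chr8:76899442-77245012 (plus) and Hsd11b1 at chr1:193221634-193264075 (minus). Srd5a1 at chr13:69573449-69611442 (minus) shares its chromosome with Akr1c14 at chr13:4049011-4090688 (plus). Hsd17b11 lies at chr5:103989762-104021919 (minus), Cyp7b1 at chr3:18071950-18243338 (minus) and Sult1a1 at chr7:126672865-126676432 (minus). Of all stretches of 31 bases in the last 500 bases of their coding transcripts, 9.51% of those of Sult1a1 and 0.259% of those of Nr3c1 occur in a transcript of another gene, and none of those of the other 6 genes do. Reads from these stretches of Sult1a1 could be assigned to Sult1a1 or to the other gene that holds them, Brd1 or Gm6939. GENCODE includes transcripts that start farther upstream than the RefSeq starts used above for Nr3c2, Akr1c14 and Hsd11b1. The windows of these 3 genes therefore lie inside the gene bounds given here. Those of Hsd17b11 and Sult1a1 do in part, that of Sult1a1 by the 14 bases left out of the sequence shown above.

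Between the fractions, 7 of the 8 messages were higher in the astrocyte pull-down and Srd5a1 was lower, by edgeR's quasi-likelihood test over all 40 libraries (Benjamini-Hochberg adjusted p under 0.05 over 15629 genes). The background was high: 86.8% of all genes tested passed, 43.1% as higher and 43.7% as lower. The median log2 difference was 2.18 for the 8 genes against -0.01 for all genes. At least 2-fold higher were 7 of the 8, against 22.8% of all genes, and at least 8-fold higher were Hsd11b1 and Cyp7b1, against 4.26%. For 6 of the 8, all but Srd5a1 and Sult1a1, the lowest of 20 pull-downs exceeded the highest of 20 supernatants, which held for 18.3% of all genes (37.3% did not overlap in either direction). Akr1c14 is among the 7 and the 6 and enters the median. Only its pull-downs had enough counts for it to be tested, which largely fixed its direction. In bulk libraries, a larger share of a cell type and more message per cell cannot be told apart.

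**Figure D1:**
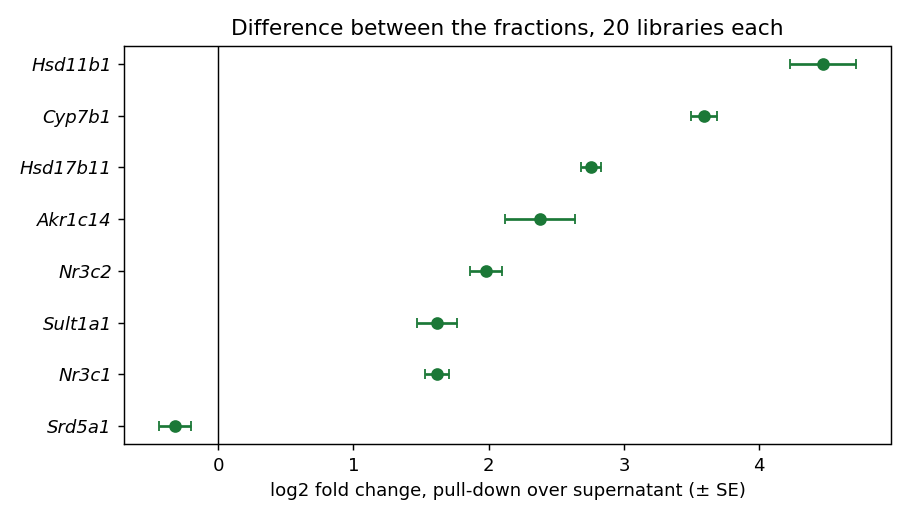
Log2 difference of pull-down over supernatant (x axis) for each of the 8 genes (y axis), as edgeR estimates with standard errors over 20 libraries a fraction; the line marks no difference. Hsd11b1 stands farthest to the right at 4.47, and Srd5a1 is the only gene left of the line, at -0.32.

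Both receptors were enriched in the pull-down. Nr3c1, the glucocorticoid receptor, had a lowest, median and highest level of 206, 250.3 and 307 CPM over the pull-downs and of 51.4, 86.9 and 114 CPM in the supernatants. The fractions did not overlap, and the log2 difference was 1.62 ± 0.09 (SE; edgeR adjusted p = 1.2e-20). Nr3c2, the mineralocorticoid receptor, ran from 13.8 through a median of 19.0 to 34.5 CPM over the pull-downs and from 2.12 through 5.60 to 8.68 CPM in the supernatants. Its fractions did not overlap either, at a log2 difference of 1.98 ± 0.12 (edgeR adjusted p = 3.9e-19). In the pull-downs the mean of Nr3c1 was 254.7 ± 29.8 CPM and that of Nr3c2 20.5 ± 5.61 CPM (SD, n = 20 each), so the glucocorticoid receptor message was the more abundant in every library.

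Hsd11b1, which reactivates glucocorticoid, had the largest enrichment of the set. Its pull-down levels ran from 30.99 through a median of 61.7 to 87.3 CPM, and its supernatant levels from 0.414 through 1.93 to 10.5 CPM. Even the highest supernatant stayed below the lowest pull-down, and the log2 difference was 4.47 ± 0.24 (edgeR adjusted p = 8.8e-20), a 22.2-fold difference. Hsd11b1 needs NADPH from hexose-6-phosphate dehydrogenase (H6pd) to work as a reductase. The H6pd message averaged 2.74 ± 1.22 CPM over the pull-downs and 2.19 ± 0.734 CPM over the supernatants (SD, n = 20 each), and its log2 difference of 0.27 ± 0.18 did not pass (edgeR adjusted p = 0.146).

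The supernatants differed among themselves in Hsd11b1 and in astrocyte markers. The 4 supernatants with the most Hsd11b1, ORX 11, ORX 22, HFD 1 and chow 23, had 10.5, 8.20, 5.37 and 5.21 CPM of it. The summed level of the 10 astrocyte markers in the same 4 supernatants was 2143, 2415, 2146 and 1544 CPM, within a range of 605 to 2415 CPM over all 20. The highest sum on chow, 2107 CPM, belonged to a supernatant other than chow 23, with at most 3.98 CPM of Hsd11b1. The part of these markers in the supernatant level of Hsd11b1 was not tested.

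The 2 enzymes of 5-alpha reduction and its next step had the lowest levels of the set in the pull-downs. Srd5a1, the 5-alpha-reductase, had 3.64, 4.63 and 8.11 CPM as lowest, median and highest pull-down and 4.09, 7.08 and 9.05 CPM as the same 3 supernatants. The fractions overlapped almost entirely, and the log2 difference of -0.32 ± 0.12 (edgeR adjusted p = 0.0105) was the smallest of the set. Under the 6 alternatives it lay between -0.38 and -0.26 (adjusted p from 0.00151 to 0.0410). Akr1c14, which acts on the 5-alpha-reduced steroids, had 0.794, 1.35 and 5.51 CPM in the pull-downs. Its supernatant level was near the limit of detection, from 0 through a median of 0.308 to 0.707 CPM, which is 0 to 8 counts a library, with a count of 0 in 2 libraries. The fractions did not overlap, and the fitted log2 difference was 2.38 ± 0.26 (edgeR adjusted p = 4.5e-11). Akr1c14 had enough counts to be tested only through its pull-downs. Its direction was therefore largely fixed in advance, and this p-value is no support for it.

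Hsd17b11 and Cyp7b1 were both enriched in the pull-down. Hsd17b11, the lipid-droplet 17-beta-hydroxysteroid dehydrogenase, had 169.5, 238 and 410.5 CPM as lowest, median and highest pull-down and 29.2, 34.5 and 46.2 CPM as lowest, median and highest supernatant. Its log2 difference was 2.76 ± 0.07 (edgeR adjusted p = 1.1e-30). Cyp7b1, the oxysterol 7-alpha-hydroxylase, had 36.3, 57.0 and 74.9 CPM over the pull-downs and 2.29, 4.83 and 6.89 CPM in the supernatants, a log2 difference of 3.59 ± 0.10 (edgeR adjusted p = 1.4e-30). Neither gene's fractions overlapped. Their standard errors were the smallest of the set relative to the difference.

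Sult1a1, the sulfotransferase, was enriched but not without overlap. Its pull-down levels ran from 3.83 through a median of 18.7 to 42.5 CPM and its supernatant levels from 2.79 through 5.91 to 10.6 CPM. The log2 difference was 1.62 ± 0.15 (edgeR adjusted p = 2.8e-13). The pull-downs below the highest supernatant were HFD 1 at 9.95 CPM and, of the orchiectomised group, numbers 11, 2 and 22 at 3.83, 8.85 and 10.0 CPM.

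**Figure D2:**
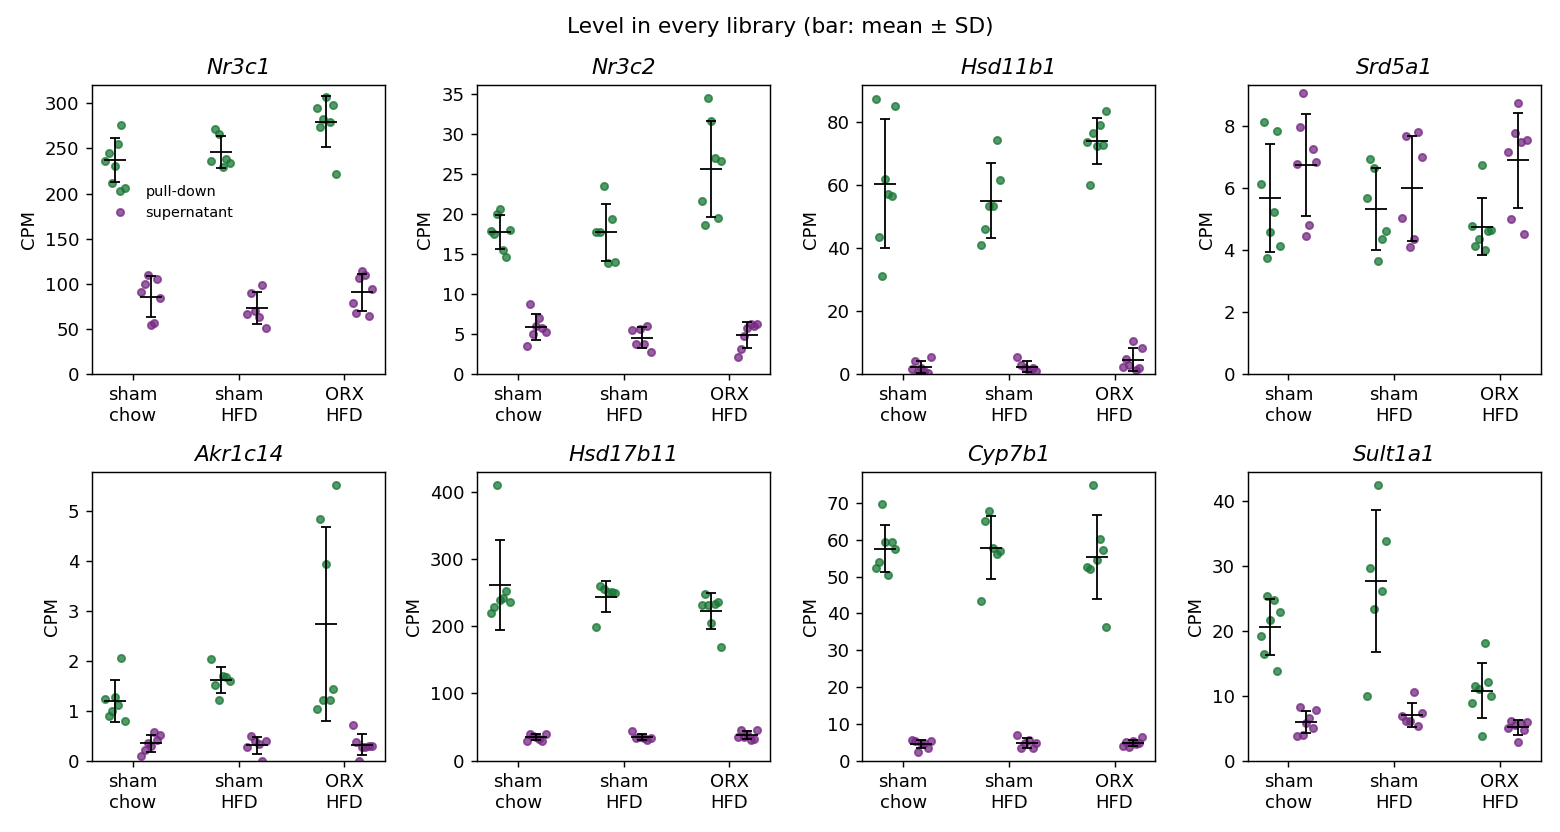
Level in CPM (y axis, linear, from 0) of each gene in every library, by treatment group (x axis), with pull-downs in green and supernatants in purple; bars give the mean and SD of 7, 6 and 7 libraries. The colours stay apart except for Srd5a1 and Sult1a1, and the Sult1a1 pull-downs of the orchiectomised mice, from 3.83 to 18.1 CPM, lie below those of most sham mice.

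Ordered by level in the pull-downs, Nr3c1 at 254.7 ± 29.8 CPM and Hsd17b11 at 242.2 ± 45.2 CPM came first and did not differ beyond their spread. Hsd11b1 at 63.4 ± 15.9 CPM and Cyp7b1 at 56.9 ± 8.65 CPM followed, and these neighbours too lay within their spread, as did Nr3c2 at 20.5 ± 5.61 CPM and Sult1a1 at 19.2 ± 9.59 CPM. Srd5a1 at 5.24 ± 1.36 CPM and Akr1c14 at 1.86 ± 1.32 CPM were lowest (SD, n = 20 throughout). In the supernatants, Nr3c1 at 83.6 ± 20.6 CPM and Hsd17b11 at 35.8 ± 5.09 CPM again led. There Srd5a1, at 6.56 ± 1.58 CPM, took the third place, beside Sult1a1 at 5.97 ± 1.71, Nr3c2 at 5.12 ± 1.59 and Cyp7b1 at 4.69 ± 1.10 CPM, none of which stood clear of the others. Hsd11b1 had 2.999 ± 2.67 CPM and Akr1c14 0.324 ± 0.175 CPM in the supernatants.

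Within a sample number, the pull-down exceeded the supernatant in all 20 samples for 7 of the genes, with the limit given above for Akr1c14. Srd5a1 was the exception, higher in the pull-down in 7 of 20 samples (4 of 7 on chow, 2 of 6 on HFD and 1 of 7 after orchiectomy). Its log2 ratio, taken with 0.5 CPM added to each level, ran from -1.18 to 0.64. For Sult1a1 the median log2 ratio was 1.80 on chow, 2.04 on HFD and 0.87 after orchiectomy, and for Nr3c2 it was 1.69, 1.87 and 2.36 in the same order.

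High-fat feeding in sham mice changed none of the 8 genes detectably in either fraction. By edgeR's quasi-likelihood test, 0 of 14059 genes (0.0%) passed in the pull-downs, where 240 genes (1.71%) had an unadjusted p under 0.05, none of them in the set. DESeq2 called 2 genes there and limma voom 0. In the supernatants 0 of 14628 genes (0.0%) passed, and the unadjusted p was under 0.05 for 206 (1.41%), again none in the set (DESeq2 3, limma voom 0). Akr1c14 had too few counts to be tested in the supernatants, so 7 of the 8 genes were.

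Neither receptor message passed between the diets. Nr3c1 had 237 ± 24.3 CPM on chow (n = 7) and 246 ± 18.0 CPM on HFD (n = 6) in the pull-downs, a log2 difference of 0.04 ± 0.08. Nr3c2 had 17.7 ± 2.15 and 17.7 ± 3.59 CPM, a log2 difference of -0.02 ± 0.15. In the supernatants the differences were -0.24 ± 0.19 for Nr3c1 and -0.38 ± 0.25 for Nr3c2 (edgeR adjusted p = 0.904 for both).

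Of the enzymes, Sult1a1 and Akr1c14 had the largest estimates on HFD in the pull-downs, both at a log2 difference of 0.41 (SE 0.28 and 0.38; edgeR adjusted p = 1.00 for both). Sult1a1 had 13.9, 21.6 and 25.4 CPM as lowest, median and highest chow pull-down, against 9.95, 27.9 and 42.5 CPM on HFD, and the groups overlapped. Its difference was 0.24 ± 0.21 in the supernatants. The estimates in the pull-downs for Hsd11b1 (-0.14 ± 0.18), Hsd17b11 (-0.11 ± 0.13), Srd5a1 (-0.11 ± 0.20) and Cyp7b1 (-0.01 ± 0.13) were smaller than their errors or close to them. In the supernatants those for Srd5a1 (-0.18 ± 0.20), Hsd11b1 (0.17 ± 0.61), Cyp7b1 (0.08 ± 0.20) and Hsd17b11 (0.01 ± 0.12) were too. No difference between the diets was shown to differ between the fractions by the interaction test (0 of 15629 genes, 0.0%; unadjusted p under 0.05 in 399 genes, 2.55%, and in none of the 8; DESeq2 4, limma voom 0).

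**Figure D3:**
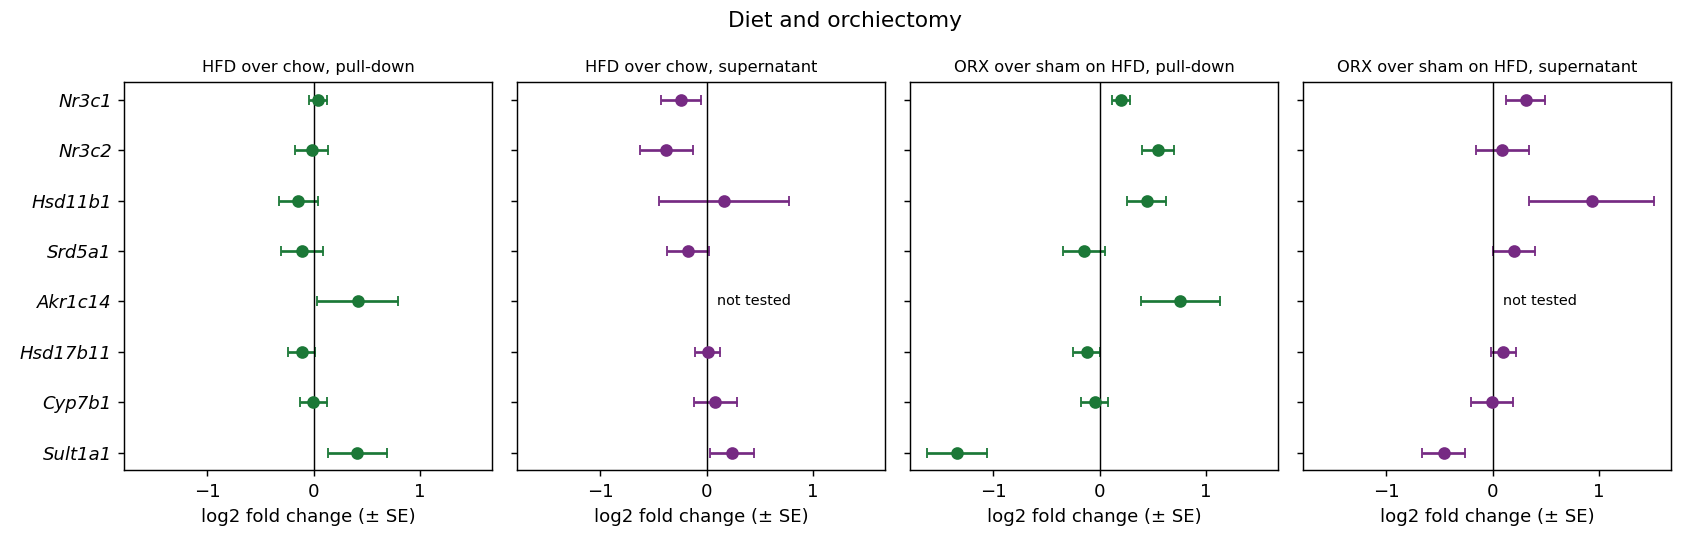
Log2 differences with standard errors (x axis) of the 8 genes (y axis) for HFD over chow in sham mice and for orchiectomised over sham mice on HFD, in the pull-downs (green) and supernatants (purple). Sult1a1 lies farthest from 0 after orchiectomy in the pull-downs, at -1.34, and no difference shown passed the adjusted threshold.

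Orchiectomy on HFD left no gene past the threshold in the pull-downs (0 of 14059, 0.0%), although 918 genes (6.53%) had an unadjusted p under 0.05. Of the 8 genes, 4 had such a p: Sult1a1 with less message after orchiectomy, and Nr3c2, Nr3c1 and Hsd11b1 with more. DESeq2 called 10 genes, Sult1a1 among them, and limma voom 0. For each of the 8 genes the groups overlapped, as they did for all but 24 of the genes tested (0.171%). The orchiectomy and diet comparisons share the sham libraries on HFD.

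Sult1a1 had the largest difference of the set. Its level was 9.95, 27.9 and 42.5 CPM as lowest, median and highest pull-down of sham mice on HFD and 3.83, 11.0 and 18.1 CPM after orchiectomy. Every orchiectomised library lay below 5 of the 6 sham libraries, whose levels started at 23.4 CPM, and the exception was HFD 1. The group means were 27.6 ± 10.9 CPM (n = 6) and 10.8 ± 4.24 CPM (n = 7), and the log2 difference was -1.34 ± 0.28 (edgeR adjusted p = 0.246).

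Whether Sult1a1 passed depended on the method and on which libraries entered, while the size of its difference hardly moved. DESeq2 gave -1.35 (adjusted p = 0.00363), and limma voom -1.33 (adjusted p = 0.396). In edgeR it passed without HFD 1, at -1.51 ± 0.24 (adjusted p = 0.0143), and without the 4 pull-downs rich in Gm42418, at -1.33 ± 0.20 (adjusted p = 0.0155). Without the 5 pull-downs rich in endothelial markers, a choice made after seeing the data, it was -1.30 ± 0.22 (adjusted p = 0.0532). Over all 6 alternatives the adjusted p ran from 0.00363 to 0.620, and leaving out each library in turn gave log2 differences from -1.51 to -1.17.

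In the supernatants Sult1a1 had 5.26, 6.49 and 10.6 CPM as lowest, median and highest library of sham mice on HFD and 2.79, 5.48 and 6.06 CPM after orchiectomy. The groups overlapped, and the log2 difference was -0.46 ± 0.21 (edgeR adjusted p = 0.945). The difference between the fractions, as an interaction, was -0.89 ± 0.36 (edgeR adjusted p = 0.941) and did not pass. All 10 astrocyte markers had an interaction in the same direction (median -0.46, none past the threshold), and their part in that of Sult1a1 was not tested. Over all genes 1 of 15629 (0.0064%) passed this interaction test, in the direction of a higher difference in the pull-down, namely Tac2 at 2.84 ± 0.48 (adjusted p = 0.00978). An unadjusted p under 0.05 occurred for 692 genes (4.43%), of the 8 only for Sult1a1 (DESeq2 called 5 genes, limma voom 0).

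The mineralocorticoid receptor message Nr3c2 had more after orchiectomy in the pull-downs, short of the adjusted threshold. Its lowest, median and highest levels were 13.8, 17.7 and 23.5 CPM in sham mice on HFD and 18.7, 26.7 and 34.5 CPM in orchiectomised mice. Of the 7 orchiectomised libraries, 4 lay above the highest sham library. The log2 difference was 0.55 ± 0.15 (edgeR adjusted p = 0.722) and ran from 0.46 to 0.65 when each library was left out in turn. Without the endothelial-rich pull-downs it was 0.55 ± 0.18 (adjusted p = 0.572). In the supernatants it was 0.09 ± 0.25, and the interaction of 0.44 ± 0.29 did not pass (edgeR adjusted p = 0.941).

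The glucocorticoid receptor message Nr3c1 moved less. Its pull-down levels were 229.7, 237 and 271 CPM in sham mice on HFD and 222, 283 and 307 CPM in orchiectomised mice, where 6 of 7 libraries lay at 274 CPM or above and ORX 22 lay at 222 CPM. The log2 difference was 0.20 ± 0.08 in the pull-downs (edgeR adjusted p = 0.741) and 0.31 ± 0.19 in the supernatants (adjusted p = 0.945).

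Hsd11b1 had the same direction as the receptors in both fractions. Pull-down levels were 40.9, 53.2 and 74.3 CPM in sham mice on HFD and 60.0, 73.6 and 83.4 CPM after orchiectomy, with overlap, and the log2 difference was 0.44 ± 0.18 (edgeR adjusted p = 0.741). In the supernatants the means were 2.32 ± 1.69 and 4.50 ± 3.56 CPM (n = 6 and 7), a log2 difference of 0.93 ± 0.58 (adjusted p = 0.945). There the high values were those of ORX 11 and 22, and all 10 astrocyte markers were higher after orchiectomy (median log2 difference 0.34, none past the threshold). The part of the astrocyte markers in this difference was not tested.

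Akr1c14 divided the orchiectomised pull-downs. Numbers 11, 6 and 22 had 3.93, 4.83 and 5.51 CPM, and the other 4 had 1.04 to 1.43 CPM. Sham pull-downs on HFD had 1.22, 1.63 and 2.03 CPM as lowest, median and highest, so the 3 high libraries lay above every sham library and the other 4 lay within or below the sham range. The log2 difference over all libraries was 0.76 ± 0.37 (edgeR adjusted p = 0.741). The 3 high libraries were the 3 orchiectomised pull-downs with endothelial markers over 500 CPM, at 992, 1151 and 1466 CPM. Without the 5 endothelial-rich pull-downs of all groups, a choice made after seeing the data, the difference was -0.32 ± 0.28 (adjusted p = 0.863). This refit left out the 3 high libraries themselves, so the loss of the positive difference was largely fixed in advance. ORX 11 and 22 were also rich in Gm42418. The part of the endothelial markers in the Akr1c14 level was not tested. HFD 1 and chow 8, which had 877 and 696 CPM of endothelial markers, had 2.03 and 0.890 CPM of Akr1c14.

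**Figure D4:**
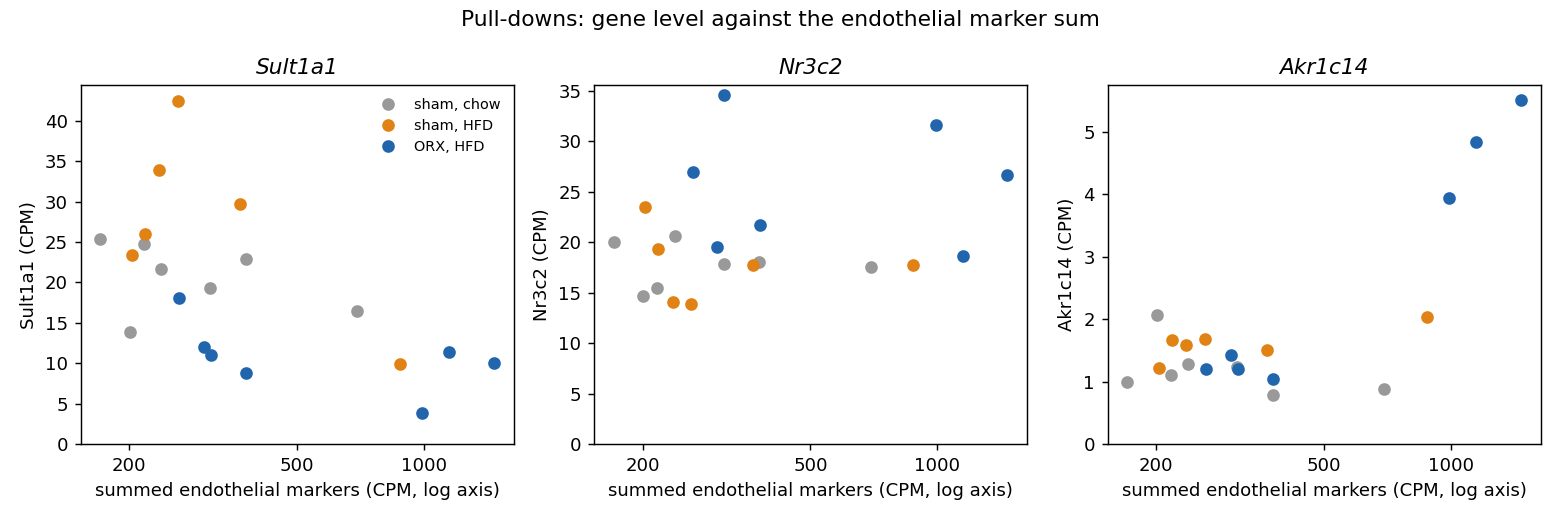
Level in CPM (y axis, linear, from 0) of Sult1a1, Nr3c2 and Akr1c14 in each of the 20 pull-downs against the summed level of 7 endothelial markers (x axis, CPM, log scale), coloured by group. The 3 Akr1c14 levels over 3.9 CPM stand at the right, at endothelial sums of 992 to 1466 CPM. The orchiectomised libraries span endothelial sums of 263 to 1466 CPM and Sult1a1 levels of 3.83 to 18.1 CPM.

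Endothelial markers were higher after orchiectomy in the pull-downs for 7 of 7 genes (median log2 difference 0.78, none past the threshold), with summed levels of 203 to 877 CPM in sham mice on HFD and 263 to 1466 CPM in orchiectomised mice. None of them was at 0. Red blood cell markers had higher fitted levels for 5 of 5 genes (median 1.09 in the pull-downs and 0.67 in the supernatants). Their summed pull-down levels were 356 to 1852 CPM in sham mice on HFD and 230.1 to 6737 CPM in orchiectomised mice. The median sum was lower after orchiectomy, at 494 against 622 CPM in the pull-downs and 2219 against 2426 CPM in the supernatants. A rise in most libraries was therefore not shown. Oligodendrocyte precursor markers were higher in the pull-downs for 5 of 5 (median 0.14) and neuron markers for 9 of 10 (median 0.17). So were oligodendrocyte markers for 6 of 7 (0.19), mural and fibroblast markers for 6 of 8 (0.19) and microglia markers for 4 of 6 (0.12). Tanycyte and ependymal markers were higher for 3 of 5 (0.19). Lower were astrocyte markers for 7 of 10 (-0.05), choroid plexus markers for 2 of 3 (-0.27) and the 1 pituitary marker tested (-0.43). None of these passed the threshold. The part of these other markers in any difference of the 8 genes was not tested. That of the endothelial markers in the differences of Nr3c1 and Hsd11b1 was not tested beyond the refits without these libraries. The remaining enzymes showed little. In the pull-downs the log2 differences after orchiectomy were -0.15 ± 0.20 for Srd5a1, -0.12 ± 0.13 for Hsd17b11 and -0.05 ± 0.13 for Cyp7b1. In the supernatants they were 0.20 ± 0.20, 0.10 ± 0.12 and -0.00 ± 0.20. No gene passed there (0 of 14628, 0.0%), 439 genes (3.0%) had an unadjusted p under 0.05, of the 7 tested genes only Sult1a1 among them, and DESeq2 called 5 and limma voom 0.

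Orchiectomised mice on HFD were also compared with sham mice on chow, which differ in both surgery and diet. In the pull-downs 2 of 14059 genes (0.0142%) passed, neither of them in the set: Esr1, the oestrogen receptor alpha gene, at 1.73 ± 0.25, and Tac2, the neurokinin B gene, at 3.03 ± 0.43 (edgeR adjusted p = 0.00312 for both). Esr1 was low in the pull-downs throughout, with 0.967 ± 0.252 CPM on chow, 1.28 ± 0.488 CPM on HFD and 3.24 ± 0.902 CPM after orchiectomy, and had 8.24 ± 1.09, 6.90 ± 0.682 and 8.16 ± 1.98 CPM in the supernatants. An unadjusted p under 0.05 occurred in 1566 genes (11.1%).

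Of the 8 genes, 4 had such a p in this comparison. The log2 differences were 0.53 ± 0.15 for Nr3c2, 0.24 ± 0.08 for Nr3c1, -0.93 ± 0.28 for Sult1a1 and 1.17 ± 0.36 for Akr1c14, each with an edgeR adjusted p of 0.369. Sult1a1 had 13.9 to 25.4 CPM in the chow pull-downs and 3.83 to 18.1 CPM after orchiectomy, and 6 of 7 orchiectomised libraries lay below the lowest chow library. Akr1c14 again rested on ORX 6, 11 and 22: without the endothelial-rich pull-downs, which include these libraries, its difference was -0.03 ± 0.28. The other 4 were 0.30 ± 0.17 for Hsd11b1, -0.26 ± 0.19 for Srd5a1, -0.24 ± 0.12 for Hsd17b11 and -0.05 ± 0.12 for Cyp7b1. In the supernatants 0 of 14628 genes passed (0.0%; unadjusted p under 0.05 in 331 genes, 2.26%, none of the 7 tested; DESeq2 3, limma voom 0), and the largest estimate of the set was 1.10 ± 0.57 for Hsd11b1. The comparison shares its libraries with both of the others, so its values are no separate support for them.

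Hsd17b11 had single libraries far from their groups. Among the chow pull-downs, number 12 had 410.5 CPM and the other 6 had 219 to 253 CPM, while on HFD number 1 had 199 CPM and the other 5 had 249 to 259 CPM. After orchiectomy the range was 169.5 to 248 CPM. Cyp7b1 was steady in the pull-downs, at 57.5 ± 6.42 CPM on chow (n = 7), 57.8 ± 8.49 CPM on HFD (n = 6) and 55.4 ± 11.5 CPM after orchiectomy (n = 7), with its lowest value of 36.3 CPM in ORX 22.

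Across the 20 pull-downs, after the 3 group means were removed, each gene was set beside about 9830 others by Pearson's r on log2 CPM, as a description that shares library depth and composition. Most like Nr3c1 were Ptprz1 (r = 0.88), a receptor phosphatase of glia, and Ptpra (0.87). Most like Nr3c2 were Trappc2 (0.85) and Arf4 (0.83), and most like Hsd11b1 were Mir9-3hg (0.86) and Sel1l3 (0.86). For Srd5a1 they were Pcdh7 (0.89) and Rap2c (0.88), and for Akr1c14 Rack1 (0.81) and Abcc4 (0.79). Sult1a1 went with Phyhd1 (0.92) and Dnajc25 (0.91), Hsd17b11 with Utp14b (0.92) and Nfe2l2 (0.92), and Cyp7b1 with Tex261 (0.95) and Tiprl (0.92). Within the set the highest r was 0.72, between Hsd17b11 and Cyp7b1, and the lowest was -0.64, between Srd5a1 and Sult1a1.

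The wider steroid pathway was followed in 8 lists of 123 genes, of which 115 were in the count table. The counts between the fractions are to be read beside all genes tested, of which 43.1% were higher and 43.7% lower with a median of -0.01. Akr1c13, Akr1c14 and Pdk4, counted as higher, had enough counts to be tested in the pull-downs only. Hsd17b2, Sult2b1, Map3k6 and Slc22a3, counted as lower, had enough in the supernatants only. The directions of these genes were therefore largely fixed in advance. The list of steroid receptors also holds oestrogen-related receptors and progesterone receptor membrane components. Among its 10 tested genes, 4 were higher and 5 lower in the pull-down (median log2 difference -0.21). Nr3c1 and Nr3c2 are among the 4. The progesterone receptor Pgr was at -3.42 ± 0.15, Esr1 at -2.29 ± 0.11, the oestrogen-related receptor Esrrg at -2.07 ± 0.11 and the progesterone-binding membrane protein Pgrmc1 at -1.12 ± 0.07 (edgeR, all past the threshold). Of the 19 chaperones and coregulators of the receptors, 10 were higher and 9 lower (median 0.17), a split near that of all genes. The chaperones Hsp90aa1 (-1.51 ± 0.05), Hspa8 (-1.03 ± 0.07) and Stip1 (-0.82 ± 0.07) were lower and the coactivator Ncoa1 (1.06 ± 0.06) was higher.

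Genes that glucocorticoids are known to induce were higher in the pull-down in 13 of 18 cases and lower in 3, against 43.1% and 43.7% of all genes (median 1.40 against -0.01; Sult1a1 is among the 13). The metallothionein Mt1 was at 3.94 ± 0.16, the lipoprotein lipase inhibitor Angptl4 at 3.62 ± 0.17, and the transcriptional regulators Klf9 and Tsc22d3 at 1.97 ± 0.09 and 1.96 ± 0.10. Fkbp5, a co-chaperone that lowers the hormone affinity of the glucocorticoid receptor, was lower at -1.12 ± 0.13. After orchiectomy 0 of 17 tested members passed in the pull-downs, and the median was -0.20 against 0.01 for all genes. An unadjusted p under 0.05 occurred for 6 of the 17, against 6.53% of all genes, and these went in both directions: Sgk1 (0.58 ± 0.24) and Pdk4 (0.49 ± 0.20) were positive, and Mt1 (-0.35 ± 0.13), Angptl4 (-0.58 ± 0.22), Plin4 (-0.78 ± 0.27) and Sult1a1, given above, negative. Sgk1, Pdk4 and Plin4 are named after their values were seen. Tsc22d3 was at -0.08 ± 0.19 and Fkbp5 at -0.27 ± 0.31 in the pull-downs. In the supernatants 0 of 17 passed, and 3 had an unadjusted p under 0.05, against 3.0% of all genes. These were Plin4 at -1.60 ± 0.35 (edgeR adjusted p = 0.627), Fkbp5 at -0.30 ± 0.12 (edgeR adjusted p = 0.945) and Sult1a1, given above.

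Few genes of steroid synthesis had enough counts: 5 of 15 listed were tested, 3 of them higher in the pull-down and none lower (median 0.96). The translocator protein gene Tspo was at 1.91 ± 0.11, and the electron carriers of mitochondrial cytochromes P450 Fdx1 and Fdxr were at 1.24 ± 0.06 and 0.96 ± 0.10. The cholesterol carrier gene Star was at -0.44 ± 0.26 and did not pass (adjusted p = 0.112). Among enzymes that reduce or oxidise steroids, 10 of 15 tested were higher and 4 lower (median 1.34, with Srd5a1, Akr1c14, Hsd11b1 and Hsd17b11 counted in). Besides these, the peroxisomal enzyme Hsd17b4 (2.47 ± 0.08), the retinol dehydrogenase Rdh5 (2.03 ± 0.08), the mitochondrial enzyme Hsd17b10 (1.40 ± 0.08) and the fatty acid elongation enzyme Hsd17b12 (1.34 ± 0.07) were higher.

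**Figure D5:**
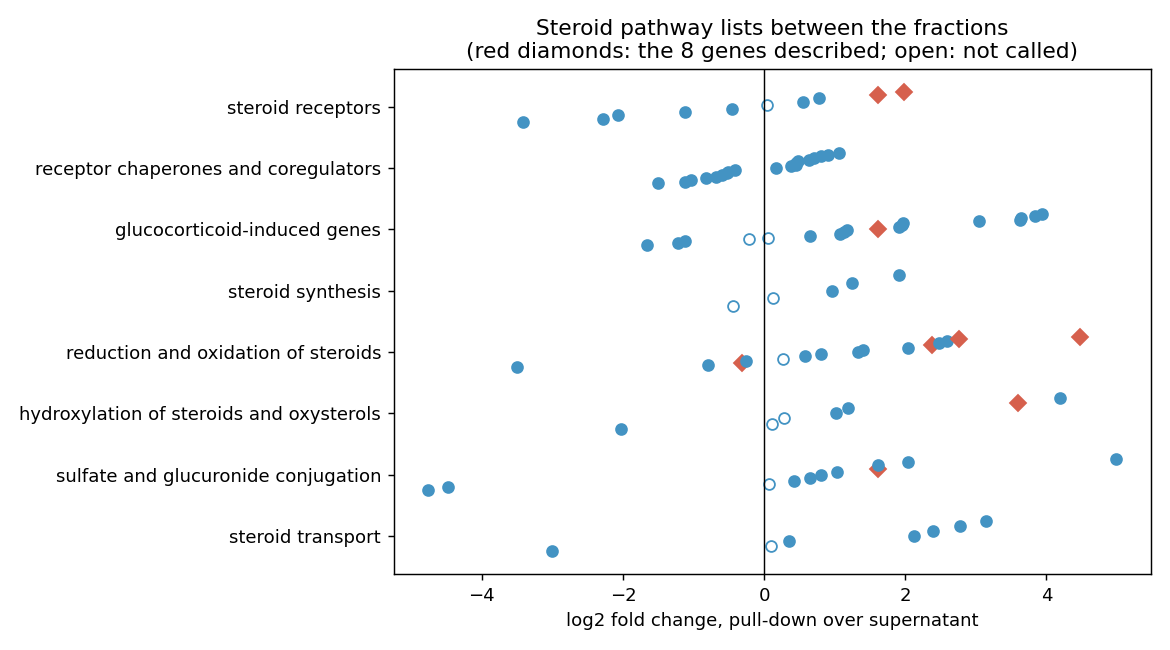
Log2 difference of pull-down over supernatant (x axis) for every tested gene of the 8 steroid pathway lists (y axis); red diamonds are the 8 genes described here, blue circles the other genes, and open circles genes that did not pass. Receptors and chaperones lie on both sides of 0 (medians -0.21 and 0.17), while steroid transport (median 2.12) lies mostly to the right.

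Of 7 tested hydroxylation genes, 4 were higher and 1 lower in the pull-down (median 1.03). Beside Cyp7b1 these were Cyp2d22 (4.19 ± 0.15), the sterol 27-hydroxylase Cyp27a1 (1.18 ± 0.11) and Por, the reductase that feeds electrons to microsomal cytochromes P450 (1.03 ± 0.08). Cyp46a1, which makes 24-hydroxycholesterol in neurons, was lower at -2.03 ± 0.08. Cyp46a1 and Cyp7b1 thus differed between the fractions in opposite directions, and a link between the 2 was not tested.

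For conjugation, 8 of 11 tested genes were higher and 2 lower (median 0.81). Papss2, which makes the sulfate donor used by Sult1a1, was at 4.99 ± 0.22, and Slc35b2, which carries that donor into the Golgi, was at 1.62 ± 0.06. Ugt1a7c was at 2.05 ± 0.14, with reads that the shared last exons of the Ugt1a genes leave uncertain, and the brain sulfotransferase-like gene Sult4a1 was at -4.48 ± 0.09. Of 7 transport genes, 5 were higher and 1 lower (median 2.12). The organic anion carrier Slco1c1 (3.15 ± 0.14) and the efflux pumps Abcb1a (2.78 ± 0.23) and Abcc4 (2.12 ± 0.14) were higher in the pull-down. The organic cation carrier Slc22a3 was at -3.003 ± 0.24, a direction largely fixed in advance, as given above. Slco1a4, on the transport list, is also an endothelial marker, and the part of endothelial message in this list was not tested. In the diet and orchiectomy comparisons no gene of the 8 lists passed apart from Esr1, given above.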

How the data were processed

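Messenger RNA was measured in 20 pull-down and 20 supernatant libraries. Per the labels' protocols, polyadenylated RNA was taken with the Dynabeads mRNA DIRECT kit and sequenced with the QuantSeq 3' FWD kit. Per the submitters' processing notes, Trim Galore 0.6.4, Salmon 1.9.0 and the build GRCm38 were used. For annotation and strand setting, nothing is given in the sources used. The authors deposited estimated counts for 26792 gene symbols, and 12.7% of values above 0 have a decimal part. A second table deposited by the authors, named TPM, holds a signal not scaled by length. It gives the same counts within 0.01 for 25089 of 26783 shared symbols and for all 8 genes described, and was not tested.

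Estimated counts were rounded and tested in R 4.3.3 with edgeR 4.0.16 (quasi-likelihood, TMM scaling, filterByExpr with a minimum count of 10, robust fit), and called at a Benjamini-Hochberg adjusted p under 0.05 over all genes tested. Each fraction was fitted apart with 3 group means. Fractions and interactions came from 1 fit of all 40 libraries with 6 group means. CPM are scaled by TMM over the 40 libraries, and fold changes come from the fits. Standard errors came from the F statistic. The script was tested on simulated data. Alternatives were DESeq2 1.42.0, limma 3.58.1 with voom, RLE scaling, no filter, leaving out libraries, and a block on the sample number. No 2 libraries held identical counts.

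The genes, the 8 lists and the markers were chosen with earlier results of these data known. The text names all 8 genes, from each list up to 4 others with the smallest p between the fractions and any that passed in a treatment comparison, and H6pd, Esr1, Fkbp5 and Tsc22d3. It also names the called list genes with enough counts in a single fraction only. For likeness it names the 2 genes of at least 5 CPM with the highest r. Tac2 is named because at most 2 genes passed in its comparisons, a choice made after its value was seen.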

Additional observations from a re-analysis of the deposited data

Results flagged for a closer look

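Among 48 sets of 4 to 10 libraries (each gene in each group and fraction), 7 held a library far from the others by Dixon's test at the 95% level, and chance alone gives about 1 in 20. Of the pull-downs after orchiectomy, number 22 had 221.9 CPM of Nr3c1 against 274 to 307 CPM in the others, and number 11 had 6.73 CPM of Srd5a1 against 3.99 to 4.78 CPM. Of the chow pull-downs, number 21 had 2.06 CPM of Akr1c14 against 0.794 to 1.28 CPM, and number 12 had 410.5 CPM of Hsd17b11 against 219 to 253 CPM. On HFD, number 1 stood apart in Hsd17b11 in both fractions, low in the pull-down (198.7 CPM against 249 to 259 CPM) and high in the supernatant (44.7 CPM against 30.0 to 34.5 CPM). The supernatant of number 11 after orchiectomy had 2.79 CPM of Sult1a1 against 4.71 to 6.06 CPM. Of these libraries, the pull-downs of HFD 1 and ORX 11 and 22 are among those rich in endothelial markers and in Gm42418.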

How the results depend on the processing

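All 8 genes kept their call and direction between the fractions under each of the 6 alternatives. Counts of all genes called that moved were these. With DESeq2 they were 2 for diet and 10 for orchiectomy in the pull-downs, 3 and 5 in the supernatants, 8 (pull-down) and 3 (supernatant) for orchiectomised mice against chow, and 4 and 5 for the diet and orchiectomy interactions with fraction. With limma voom they were 1 for orchiectomised mice against chow in the pull-downs and 0 for the orchiectomy interaction. For orchiectomy in the pull-downs they were 4 without the pull-downs rich in Gm42418 and 2 without those rich in endothelial markers, an alternative chosen after seeing the data. Without the samples rich in Gm42418 the orchiectomy interaction had 0. Of the 8 genes, DESeq2 and the fit without Gm42418-rich pull-downs each called 1, Sult1a1, for orchiectomy. The causes were not tested.

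Sample numbers were checked for pairing: over 20 numbers the correlation of a number's deviations in pull-down and supernatant ran from -0.11 to 0.19 (median 0.03), over 0.1 in 5, and was highest with its own number in 4. With the replicate block, 13485 genes were called between the fractions in place of 13561, and the orchiectomy interaction had 0 in place of 1. It changed no call of the 8 genes.

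Signs turned only where the estimate was small or, for Akr1c14, where libraries were removed. Without endothelial-rich pull-downs Akr1c14 was -0.32 (orchiectomy) and -0.0342 (orchiectomised against chow), and Cyp7b1 was 0.0501 (diet), 0.0232 (orchiectomy) and 0.0733 (orchiectomised against chow). Without Gm42418-rich ones Cyp7b1 was 0.0507 (diet), 0.0287 (orchiectomised against chow) and 0.0650 (diet interaction), and Nr3c1 was 0.0187 (orchiectomy interaction). With limma voom Cyp7b1 was 0.0263 (orchiectomy, supernatant).

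Leaving out 1 library at a time gave 0 to 5 genes called for orchiectomy in the pull-downs: 5 without HFD 1, 3 without chow 12, 2 without ORX 6, 2 without chow 23, and 1 without ORX 10 or HFD 13. Of the 8 genes it gave 0 to 1 (Sult1a1, without HFD 1). Against chow it gave up to 4 in the pull-downs (without ORX 6) and 0 to 2 in the supernatants (without chow 7). Signs turned within these ranges. For diet in the pull-downs Hsd17b11 ran from -0.15 to 0.0471, Nr3c2 from -0.12 to 0.0524 and Cyp7b1 from -0.0552 to 0.0669, and in the supernatants Hsd11b1 from -0.29 to 0.58, Hsd17b11 from -0.0819 to 0.0557 and Cyp7b1 from -0.0633 to 0.17. For orchiectomy Cyp7b1 ran from -0.14 to 0.0299 in the pull-downs and from -0.10 to 0.13 in the supernatants, where Nr3c2 ran from -0.0193 to 0.22. Against chow Cyp7b1 ran from -0.14 to 0.0314 in the pull-downs and from -0.0460 to 0.13 in the supernatants, where Srd5a1 ran from -0.0470 to 0.12 and Nr3c1 from -0.0117 to 0.15. Depth limits Akr1c14 most, with 0 to 8 counts a supernatant.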
